A study of Mus musculus with 28 samples.

Results

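The tuft gene module was followed through 28 bulk RNA-seq libraries of mouse medullary thymic epithelial cells (mTECs). The module holds 34 genes of tuft cells, listed by name and read from the count table by symbol, and all 34 were among its 55011 gene symbols. The series asks how the nuclear receptors Hnf4a and Hnf4g act on the gut-like and liver-like genes that mTECs transcribe. Each library came from 1000 sorted cells of C57BL/6 thymi and was labelled with a sorting gate and a genotype. Of the 34 tuft genes 24 fell and 3 rose in the wild-type entero-hepato gate. Their summed level was 13.0-fold higher in control mTEClo than in control mTEChi. None was called lower by edgeR in any Hnf4 mutant against control, where at most 0.74% of all genes were called in either direction.

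Tuft cells are chemosensory epithelial cells of the gut, airways and other mucosae, and tuft-like mTECs in the thymus carry the same genes. Their identity depends on the POU-domain transcription factor Pou2f3, and they detect ligands through a taste cascade that runs from G protein-coupled receptors through a gustducin-type G protein, phospholipase C and calcium release to the cation channel Trpm5. Stimulated tuft cells release interleukin 25, leukotrienes, prostaglandins and acetylcholine. Thymic tuft cells are known as a post-Aire population, which is the stage that the labels give to the mTEClo gate.

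Entero-hepato mTECs (3 libraries) and non-entero-hepato mTECs (3 libraries) were wild type. The labels do not name the antibodies of these gates. Post-Aire mTEClo came from double mutants, Foxn1cre(+/-) Hnf4a fl/fl Hnf4g -/- (4 libraries), from Hnf4a-removed thymi, Foxn1cre(+/-) Hnf4a fl/fl Hnf4g +/- (3 libraries), from Hnf4g-removed thymi, Foxn1cre(+/-) Hnf4a fl/+ Hnf4g -/- (3 libraries), and from controls, Foxn1cre(+/-) Hnf4a fl/+ Hnf4g +/- (4 libraries). mTEChi came from double mutants and controls of the same genotypes (4 libraries each). All mutant and control libraries thus carried Foxn1cre, and the controls had 1 intact allele of each receptor gene in the thymic epithelium. Foxn1cre acts in thymic epithelial cells, while the Hnf4g -/- allele is absent from the whole animal.

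Library totals were 4330120 to 8342583 reads. Levels are CPM, reads scaled to a common library total after TMM scaling of all libraries together, which corrects for differences in composition. The epithelial marker Epcam lay at 639 to 2237 CPM in all libraries, and the blood-cell marker Ptprc at 7.19 to 47.1 CPM. Hnf4a had 7 to 65 reads in each of the 22 Foxn1cre libraries, and Hnf4g lay at 3.19 to 8.29 CPM in double-mutant mTEClo and 8.997 to 15.6 CPM in control mTEClo. Neither receptor was called lower in any mutant (edgeR adjusted p = 0.0633 for Hnf4g in double-mutant mTEClo and 0.0862 in double-mutant mTEChi), and counts over the whole gene do not check a deletion of part of it.

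The 250 bases before the RefSeq start site (build GRCm38.p6) are given for 3 defining tuft genes and for 2 members that hold an octamer, the element bound by POU factors. Rgs21 was among the members that fell in the entero-hepato gate and Itpr3 among those that rose there. Capitals mark the octamer, which reads ATTTGCAT where it lies on the strand opposite to the gene.
Avil (no octamer, + strand, chr10:127000459-127000708): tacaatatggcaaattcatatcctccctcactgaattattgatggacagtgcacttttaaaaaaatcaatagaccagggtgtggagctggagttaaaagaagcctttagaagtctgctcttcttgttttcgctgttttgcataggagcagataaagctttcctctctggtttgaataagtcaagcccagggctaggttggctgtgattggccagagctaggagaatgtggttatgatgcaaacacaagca
Trpm5 (no octamer, - strand, chr7:143094643-143094892): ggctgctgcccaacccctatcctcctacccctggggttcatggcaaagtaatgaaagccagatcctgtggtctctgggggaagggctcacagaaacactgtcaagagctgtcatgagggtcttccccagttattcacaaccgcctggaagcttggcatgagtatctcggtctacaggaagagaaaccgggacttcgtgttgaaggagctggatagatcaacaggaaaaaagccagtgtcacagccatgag
Gnat3 (no octamer, + strand, chr5:17962320-17962569): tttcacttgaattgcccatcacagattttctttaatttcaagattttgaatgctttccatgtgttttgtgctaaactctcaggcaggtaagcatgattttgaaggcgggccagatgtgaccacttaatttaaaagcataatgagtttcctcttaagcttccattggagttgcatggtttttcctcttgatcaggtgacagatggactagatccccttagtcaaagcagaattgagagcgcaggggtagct
Rgs21 (octamer starting at -200, - strand, chr1:144567668-144567917): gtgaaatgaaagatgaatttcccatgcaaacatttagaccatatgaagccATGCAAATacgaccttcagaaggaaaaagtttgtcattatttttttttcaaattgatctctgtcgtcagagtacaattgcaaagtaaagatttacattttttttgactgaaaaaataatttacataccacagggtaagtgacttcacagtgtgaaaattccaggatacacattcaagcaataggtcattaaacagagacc
Itpr3 (octamer starting at -27, + strand, chr17:27057054-27057303): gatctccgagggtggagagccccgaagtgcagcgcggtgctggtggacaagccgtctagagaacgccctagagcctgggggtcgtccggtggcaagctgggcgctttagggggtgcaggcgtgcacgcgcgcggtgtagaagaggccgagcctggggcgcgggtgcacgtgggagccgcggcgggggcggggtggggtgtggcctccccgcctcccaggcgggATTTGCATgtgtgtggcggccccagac
The octamer ATGCAAAT, searched on both strands, was present in 4 of the 34 windows of 30 members, those of Rgs21, Sucnr1, Hpgds and Itpr3, against 1.6% of all 32851 windows. The HNF4 element CAAAGTCCA, searched the same way, was present in 0 of the 34 windows and in 0.384% of all windows. A motif match is a description of the letters in the window, and windows of Pou2f3, Gnb3, Alox5ap and Il25 were not analysed here. Of the 4 members with the octamer, Hpgds and Itpr3 rose in the entero-hepato gate, Rgs21 fell and Sucnr1 was not called.

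The module was far more abundant in mTEClo than in the other gates. The 34 members summed to 766, 1152 and 826 CPM in entero-hepato mTECs and to 3953, 5251 and 3580 CPM in non-entero-hepato mTECs. They summed to 22057, 22686, 24078 and 22659 CPM in double-mutant mTEClo, and to 20578, 16975, 18541 and 15591 CPM in control mTEClo. They summed to 1362, 1530, 1914 and 1703 CPM in double-mutant mTEChi, and to 1357, 1085, 1446 and 1613 CPM in control mTEChi. The 34 genes thus took 2.25 to 2.40% of all reads in double-mutant mTEClo and 1.60 to 2.09% in control mTEClo, but 0.0600 to 0.0966% in entero-hepato mTECs. In bulk samples, fewer cells of a type and less RNA per cell cannot be told apart, so each of these sums mixes the share of tuft-like cells with their RNA content.

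Per kilobase of exon, the most abundant member in control mTEClo was Gnb3, the G protein beta subunit of the taste cascade, at 987 ± 147 CPM per kb (SD, n = 4). Avil, the actin-binding protein advillin, followed at 748 ± 102 CPM per kb, and its libraries (659 to 893) overlapped those of Gnb3 (775 to 1105). Sh2d6, Alox5ap, Rgs13, Gnat3 and Ptpn6 came next at means of 404 to 480 CPM per kb, and their ranges overlapped. At the low end stood the homeobox genes Hmx2 (3.84 ± 0.43) and Hmx3 (3.44 ± 1.28), the calmodulin-binding Nrgn (4.62 ± 1.10) and the short-chain fatty acid receptor Ffar3 (0.50 ± 0.24 CPM per kb; all SD, n = 4).

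**Figure D1:**
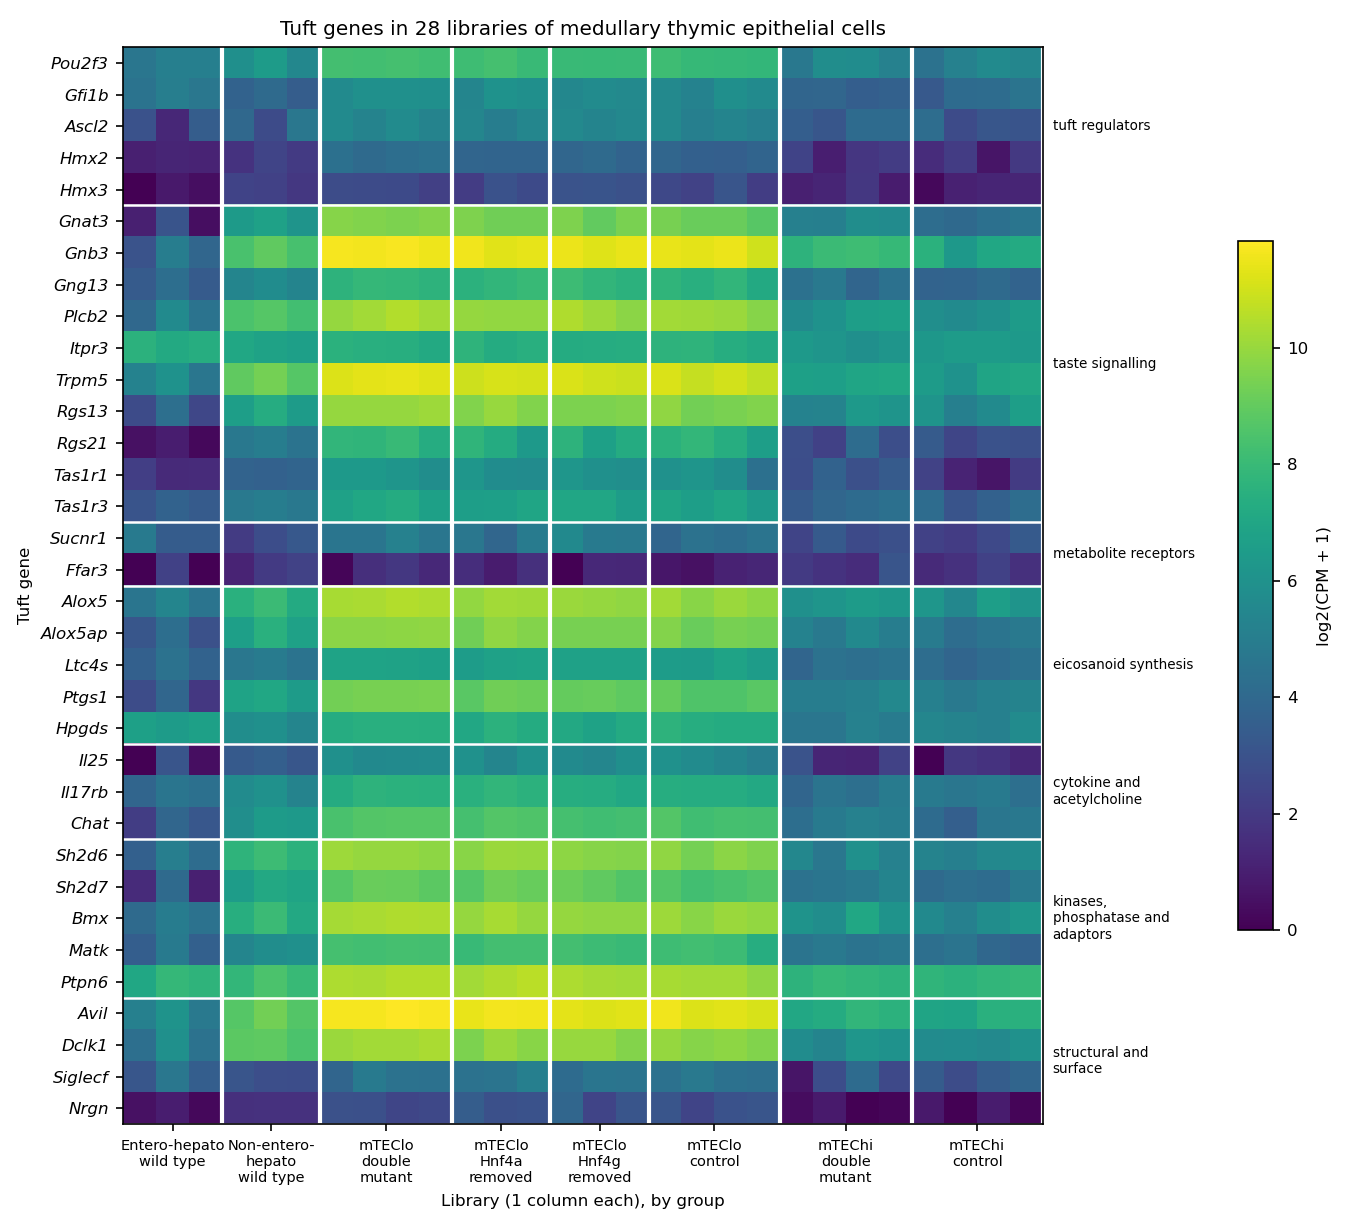
Heat map of log2(CPM + 1) for the 34 tuft genes (rows, grouped by role) in each of the 28 libraries (columns, by group). Taste, eicosanoid and kinase genes are high in the 14 mTEClo libraries, intermediate in non-entero-hepato mTECs and low in entero-hepato mTECs and mTEChi, while Itpr3 and Hpgds are high in the entero-hepato gate as well.

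The first comparison asked how the tuft genes stood in the gate enriched for gut and liver transcripts against the rest of the wild-type mTECs; 14 of 16 enterocyte genes rose in it. In entero-hepato mTECs 24 of the 34 members fell and 3 rose (edgeR quasi-likelihood test, adjusted p under 0.05 over 16811 genes). Of all genes tested, 21.8% fell and 22.7% rose. Rgs21, Hmx3 and Nrgn had few reads in the entero-hepato gate and passed the filter on low counts through the other gate. Only a fall could therefore be called for them. The median log2 fold change was -2.23 over the members and -0.05 over all genes, and the summed level was 4.66-fold lower in the entero-hepato gate. In the same fit Hnf4a and Hnf4g rose by 3.09 and 2.95 on the log2 scale. The gates also differed in other mTEC genes. The class II gene H2-Ab1 lay at 18481 to 20268 CPM in entero-hepato mTECs and 7745.5 to 8319.5 CPM in non-entero-hepato mTECs. Aire averaged 894 CPM in entero-hepato and 1670 CPM in non-entero-hepato mTECs, and the keratin gene Krt5 113.5 and 1407 CPM. The part of these differences in the tuft values was not tested.

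Of the 10 taste genes 9 fell and 1 rose, with a median log2 fold change of -3.61, the lowest of the roles. Gnat3, the gustducin alpha subunit, had 1.08, 7.45 and 0.35 CPM in entero-hepato mTECs, against 85.4, 108 and 69.7 CPM in non-entero-hepato mTECs. Trpm5, the channel at the end of the cascade, had 36.8, 64.7 and 23.9 CPM in entero-hepato mTECs, against 499, 654 and 418 CPM in non-entero-hepato mTECs. For both genes every entero-hepato library lay below every non-entero-hepato library, and entero-hepato replicate 2 was the highest of its gate. The log2 fold changes were -4.88 for Gnat3 (SE 0.62, adjusted p = 0.000299) and -3.66 for Trpm5 (SE 0.34, adjusted p = 5.05e-05). Without entero-hepato replicate 2 the Gnat3 log2 fold change was -6.94, and without replicate 3 it was -4.28.

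Rgs21, a regulator of G protein signalling found in taste and tuft cells, had the largest fall of all members with all libraries in the fit. It had 2, 5 and 1 reads (0.43, 0.93 and 0.18 CPM) in entero-hepato mTECs, against 25.8, 31.8 and 22.0 CPM in non-entero-hepato mTECs, a log2 fold change of -5.64 (SE 0.45, adjusted p = 2.31e-05). Gnb3 had 7.10, 31.3 and 13.9 CPM in entero-hepato mTECs, against 346, 488 and 335 CPM in non-entero-hepato mTECs, a log2 fold change of -4.47 (SE 0.43, adjusted p = 5.92e-05). The groups did not overlap for either gene, and without entero-hepato replicate 2 the log2 fold changes were -6.37 for Rgs21 and -5.17 for Gnb3. In that fit Gnat3, at -6.94, fell further than Rgs21. The phospholipase Plcb2 (-3.66), the G protein regulator Rgs13 (-3.56), the umami receptor subunits Tas1r1 (-2.42) and Tas1r3 (-1.51) and the gamma subunit Gng13 (-1.83) fell as well. Of the exonic bases of Gng13, 51.6% are shared with Chtf18 on the opposite strand, and without strand information their reads cannot be told apart.

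Of the kinases, phosphatase and adaptors 4 of 5 fell, and of the structural and surface genes 3 of 4. Avil had 34.4, 66.7 and 26.9 CPM in entero-hepato mTECs, against 426, 631 and 410 CPM in non-entero-hepato mTECs, a log2 fold change of -3.53 (SE 0.33, adjusted p = 5.75e-05). Bmx, a Tec-family kinase, had 15.9, 30.0 and 20.7 CPM in entero-hepato mTECs, against 173, 267 and 139 CPM in non-entero-hepato mTECs (log2 fold change -3.12, SE 0.30, adjusted p = 5.82e-05). The SH2-domain adaptor Sh2d6 had 11.2, 32.6 and 17.2 CPM in entero-hepato mTECs, against 204, 276 and 192 CPM in non-entero-hepato mTECs (log2 fold change -3.46, SE 0.34, adjusted p = 6.41e-05). All 3 were lower in every entero-hepato library than in any library of the other gate. Sh2d7 (-4.21), the microtubule-associated kinase Dclk1 (-3.70), Nrgn (-2.05) and the Csk-type kinase Matk (-1.65) also fell on the log2 scale. Nrgn had 8 reads in all entero-hepato libraries together and 31 in the other gate.

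Among the genes for lipid mediators and signals, Ptgs1, the cyclooxygenase COX-1, fell by 3.90 on the log2 scale. Alox5ap, the activating protein of 5-lipoxygenase, fell by 3.58, Alox5 itself by 2.81, the acetylcholine-synthesizing enzyme Chat by 3.11 and the interleukin 25 receptor subunit Il17rb by 1.45. Il25 had 0, 7.64 and 0.35 CPM in entero-hepato mTECs, against 9.09, 11.1 and 8.08 CPM in non-entero-hepato mTECs, and was not called (adjusted p = 0.205). Its level in entero-hepato replicate 2 stood close to the other gate, while replicate 1 had no read. The leukotriene C4 synthase Ltc4s (log2 fold change -0.77) had an adjusted p of 0.0501.

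Of the 5 regulators 3 fell and 1 rose, with a median log2 fold change of -1.29. Pou2f3 had 23.9, 33.2 and 33.7 CPM in entero-hepato mTECs, against 59.4, 88.2 and 43.5 CPM in non-entero-hepato mTECs, a log2 fold change of -1.08 (SE 0.26, adjusted p = 0.00942). The gates did not overlap for Pou2f3, though they lay closer together than for the taste genes. Hmx2 and Hmx3 had log2 fold changes of -1.42 and -3.20, the second on 0, 4 and 2 reads in the entero-hepato libraries. Within a library, the ratio of Pou2f3 to Avil CPM was 0.50 to 1.25 in entero-hepato mTECs and 0.106 to 0.140 in non-entero-hepato mTECs.

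Members that rose were 3 in number. Hpgds, the hematopoietic prostaglandin D synthase, had 105, 88.9 and 104 CPM in entero-hepato mTECs, against 54.5, 61.0 and 40.2 CPM in non-entero-hepato mTECs (log2 fold change 0.92, SE 0.16, adjusted p = 0.00168). Gfi1b, a zinc-finger repressor of tuft and blood lineages, had 21.7, 32.2 and 24.9 CPM in entero-hepato mTECs, against 12.3, 15.9 and 10.3 CPM in non-entero-hepato mTECs (log2 fold change 1.03, SE 0.25, adjusted p = 0.0095). Itpr3, the inositol trisphosphate receptor that releases calcium, had 195, 145 and 168 CPM in entero-hepato mTECs, against 131, 112 and 101 CPM in non-entero-hepato mTECs (log2 fold change 0.55, SE 0.13, adjusted p = 0.01). For each of the 3 the gates did not overlap.

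Sucnr1, the succinate receptor, had 28.8, 10.1 and 9.83 CPM in entero-hepato mTECs, against 3.17, 5.88 and 8.69 CPM in non-entero-hepato mTECs, and missed the threshold (log2 fold change 1.43, adjusted p = 0.0543). The sialic acid-binding lectin Siglecf had 7.96, 25.0 and 10.7 CPM in entero-hepato mTECs, against 7.82, 6.10 and 6.06 CPM in non-entero-hepato mTECs (adjusted p = 0.073). Both were higher in every entero-hepato library. The phosphatase Ptpn6, the basic helix-loop-helix factor Ascl2 and Ffar3 were also not called, at adjusted p of 0.0795, 0.158 and 0.508. Ffar3 was at 0 reads in 2 of the 3 entero-hepato libraries and had 21 reads in replicate 2.

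Blood-cell markers were measured beside these genes, since Gfi1b, Hpgds and Siglecf are also known from blood lineages. The megakaryocyte and platelet list (8 genes) summed to 48.8 to 137 CPM in entero-hepato mTECs and 19.0 to 34.9 CPM in non-entero-hepato mTECs, and 3 of its 4 tested genes rose. The erythroid list (7 genes) summed to 179 to 253 CPM in entero-hepato mTECs and 19.0 to 28.3 CPM in non-entero-hepato mTECs, and 5 of 5 tested genes rose. The mast cell, basophil and eosinophil list (15 genes) summed to 956 to 1145 CPM in entero-hepato mTECs and 1003 to 1069 CPM in non-entero-hepato mTECs; of 11 tested genes 3 rose and 2 fell. The myeloid and dendritic list (14 genes) summed to 1320 to 1720 CPM in entero-hepato mTECs and 684 to 802 CPM in non-entero-hepato mTECs; of 11 tested genes 4 rose and 0 fell, among them Ctss, Cd68 and Csf1r (log2 fold changes 1.39, 1.52 and 1.21). In the mast cell, basophil and eosinophil list the mast cell gene Cpa3 was at 0.35 CPM or less in every entero-hepato library, against 0.845 to 1.41 CPM in non-entero-hepato mTECs. Fcer1a and Ms4a2, receptor subunits of mast cells and basophils, averaged 6.96 ± 9.20 and 1.82 ± 0.94 CPM in entero-hepato mTECs, against 1.42 ± 1.41 and 1.12 ± 0.88 CPM in non-entero-hepato mTECs (SD, n = 3 each). The eosinophil gene Prg2 was higher in the entero-hepato gate, at 212 to 356 CPM, against 22.6 to 61.2 CPM in non-entero-hepato mTECs. Epx, of the same list, overlapped between the gates, at 40.0 to 58.1 and 23.5 to 42.5 CPM. Mcpt8 averaged 1.16 CPM in entero-hepato and 4.31 CPM in non-entero-hepato mTECs. Ccr3 rose by 3.82 and Kit fell by 0.92 on the log2 scale, so the list did not move in 1 direction. The part of these cells in the levels of Gfi1b, Hpgds and Siglecf was not tested.

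The genes beside the module moved in the same comparison. Of 26 further tuft genes 17 fell and 5 rose, and those of smallest p were the tubulin Tubb5, the phosphoinositide 3-kinase subunit Pik3r5 and the guanine nucleotide exchange factor Vav1 (log2 fold changes -2.49, -2.84 and -2.58). In the list of taste receptors and the ATP-release channel (9 genes) 2 of 8 tested genes rose and 2 fell, and the list summed to 194 to 231 CPM in entero-hepato mTECs and 132 to 148 CPM in non-entero-hepato mTECs. The ectonucleotidase Entpd2 and the cation channel Trpm4, a relative of Trpm5, rose by 1.62 and 1.27 on the log2 scale. The channel gene Calhm1, which in taste cells helps form the pore for ATP release, fell, at a mean of 0.0621 CPM in entero-hepato mTECs and 2.85 CPM in non-entero-hepato mTECs. Of 14 other eicosanoid genes 8 rose and 2 fell, and the inducible cyclooxygenase Ptgs2 rose (946 ± 68 CPM in entero-hepato mTECs and 256 ± 93 CPM in non-entero-hepato mTECs, SD, n = 3 each, log2 fold change 1.87) where the member Ptgs1 fell. The Avil paralog Vil1, a villin of enterocyte microvilli, rose by 3.85. The 18 proliferation genes all fell there, and summed to 129 to 184 CPM in entero-hepato mTECs, against 1144 to 1537 CPM in non-entero-hepato mTECs; their part in the tuft values was not tested.

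**Figure D2:**
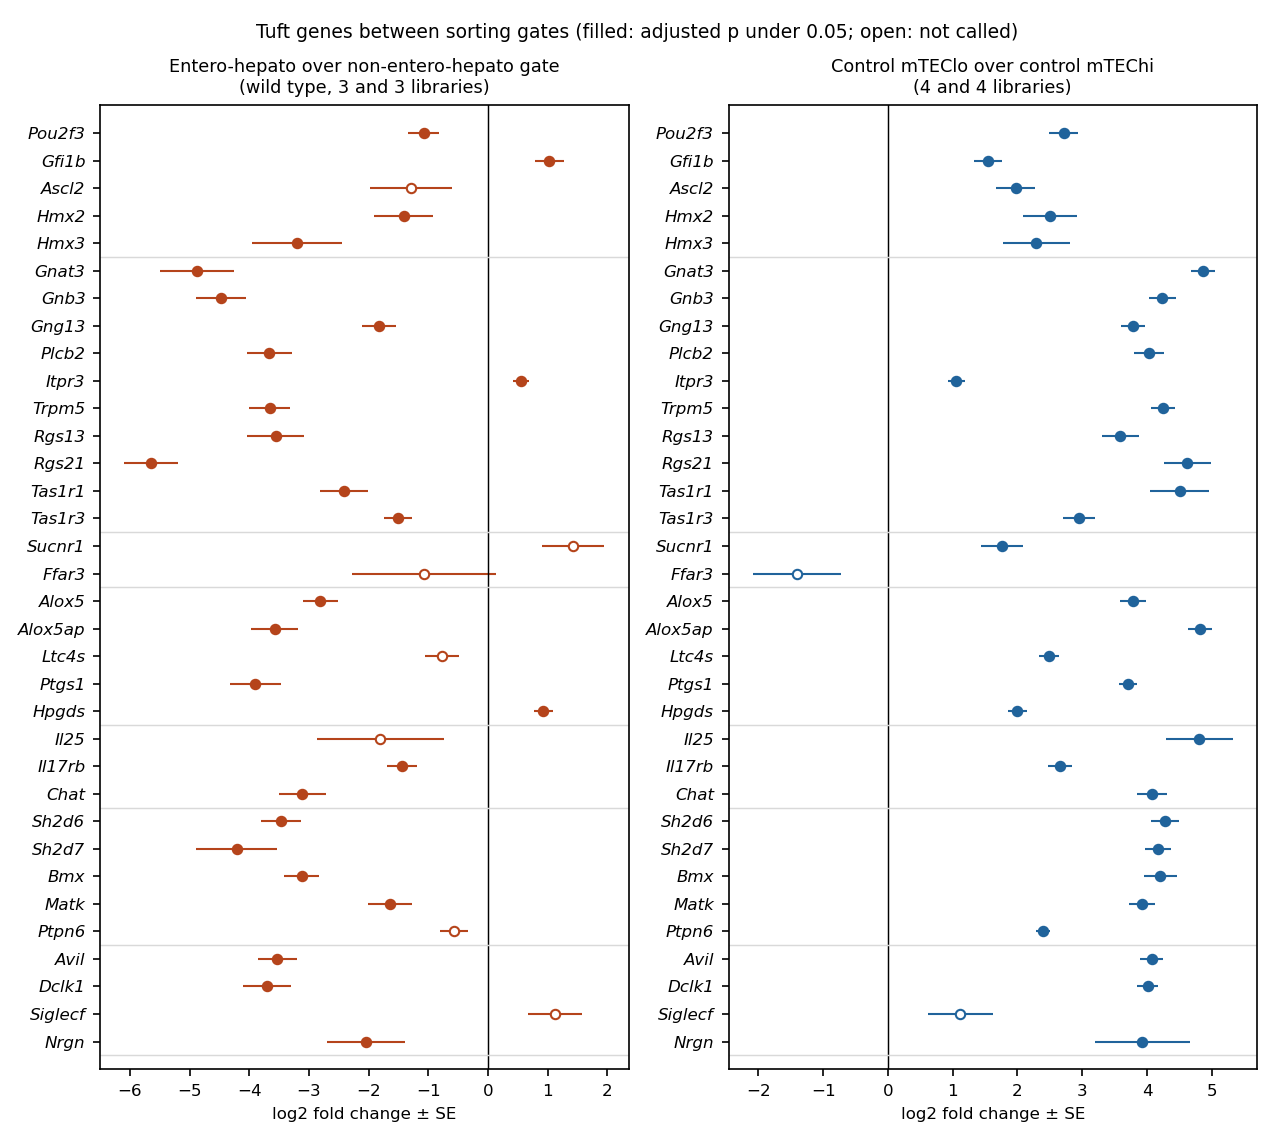
Log2 fold changes ± SE of the 34 tuft genes for entero-hepato over non-entero-hepato mTECs (left, 3 and 3 libraries) and for control mTEClo over control mTEChi (right, 4 and 4 libraries). Filled points passed adjusted p under 0.05; 24 members lie below 0 and 3 above it as filled points on the left, and 32 above it on the right.

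The second comparison set post-Aire mTEClo against mTEChi. All mTEChi libraries carry a separate run of sample numbers in the series. A difference in preparation, if there was any, cannot be told apart from the gate here. In control mTEClo 32 of 34 members rose and 0 fell. Of 20095 genes tested 20.5% rose, 4125 of the 8621 called in either direction. In double-mutant mTEClo against double-mutant mTEChi 33 of 34 members rose and 0 fell. Of all genes 23.1% rose, 4633 of the 10207 called in either direction. Hmx3 and Nrgn did not pass the filter on low counts in mTEChi alone. They entered these tests through mTEClo, so only a rise could be called for them. In controls Hmx3 had 140 reads in mTEClo and 28 in mTEChi, and Nrgn 189 and 11. The median log2 fold change of the members was 3.78 in controls and 3.70 in double mutants, against -0.04 and -0.06 over all genes, and the summed level was 13.0-fold and 14.05-fold higher in mTEClo of controls and of double mutants.

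Gnat3 had 689, 563, 569 and 439 CPM in control mTEClo, against 17.9, 15.7, 19.9 and 23.0 CPM in control mTEChi, a log2 fold change of 4.87 (SE 0.19, adjusted p = 5.27e-12). Alox5ap had 811, 567, 684 and 647 CPM in control mTEClo, against 29.3, 17.7, 22.3 and 26.3 CPM in control mTEChi, a log2 fold change of 4.82 (SE 0.18, adjusted p = 5.27e-12). Ptgs1 had 533, 381, 383 and 452 CPM in control mTEClo, against 34.2, 26.8, 34.2 and 37.8 CPM in control mTEChi, a log2 fold change of 3.71 (SE 0.14, adjusted p = 5.27e-12). The groups lay far apart for these 3 genes, with no mTEClo library near any mTEChi library.

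Dclk1 had 991, 827, 901 and 771 CPM in control mTEClo, against 51.8, 53.7, 46.4 and 62.9 CPM in control mTEChi, a log2 fold change of 4.01 (SE 0.16, adjusted p = 8.97e-12). Avil had 3035, 2386, 2504 and 2238 CPM in control mTEClo, against 121, 116, 182 and 182 CPM in control mTEChi, a log2 fold change of 4.07 (SE 0.18, adjusted p = 2.11e-11). Trpm5 had 2272, 1763, 2114 and 1690 CPM in control mTEClo, against 89.9, 63.9, 120 and 136 CPM in control mTEChi, a log2 fold change of 4.25 (SE 0.19, adjusted p = 2.3e-11). Control mTEClo replicate 1 was the highest of its group for each of these 3 genes and for the 3 before them.

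Pou2f3 had 282, 240, 239 and 227.3 CPM in control mTEClo, against 20.9, 35.3, 49.99 and 42.9 CPM in control mTEChi, a log2 fold change of 2.71 (SE 0.23, adjusted p = 5.55e-08). Ptpn6, the phosphatase SHP-1, had 1239, 1191, 1164 and 940 CPM in control mTEClo, against 211, 194, 221 and 232 CPM in control mTEChi, a log2 fold change of 2.39 (SE 0.10, adjusted p = 1.12e-11). Their log2 fold changes were smaller than those of Gnat3, Trpm5 and Avil. The ratio of Pou2f3 to Avil within a library was 0.0928 to 0.102 in control mTEClo and 0.172 to 0.305 in control mTEChi, and that of Ptpn6 was 0.408 to 0.499 in control mTEClo and 1.22 to 1.74 in control mTEChi.

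By role, all 5 regulators rose by 1.55 (Gfi1b) to 2.71 (Pou2f3), and all 10 taste genes by 1.05 (Itpr3) to 4.87 (Gnat3) on the log2 scale. Hmx3, among the regulators, was tested only because of its mTEClo reads. The 5 eicosanoid genes rose by 2.00 (Hpgds) to 4.82 (Alox5ap), Il25, Chat and Il17rb by 4.81, 4.08 and 2.66, and the 5 kinases, phosphatase and adaptors by 2.39 (Ptpn6) to 4.27 (Sh2d6). Siglecf had 20.4, 26.4, 20.7 and 18.7 CPM in control mTEClo, against 10.1, 5.83, 10.1 and 13.3 CPM in control mTEChi, and missed the threshold (log2 fold change 1.11, adjusted p = 0.081). In double mutants it passed, with a log2 fold change of 1.54 (adjusted p = 0.0174). Ffar3 had 0.66, 0.45, 1.18 and 1.43 CPM in control mTEClo, against 1.65, 2.19, 3.91 and 2.16 CPM in control mTEChi, and was the member with a negative log2 fold change in both genotypes (-1.41 and -1.20, not called).

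Of 26 further tuft genes 24 rose and 1 fell in control mTEClo, among them Lrmp (2956 ± 417 CPM in mTEClo and 136 ± 34 CPM in mTEChi, SD, n = 4 each, log2 fold change 4.43), Vav1 (3.79) and the phosphatase Ptpn18 (3.59). In the list of taste receptors and the ATP-release channel 3 genes rose and 4 fell: the channel subunits Calhm3 and Calhm1 rose by 2.96 and 3.81, and the ATP receptor P2rx3 fell by 2.15. In the type 2 cytokine list (9 genes) 1 gene rose, the receptor subunit Il13ra1 (0.79), and 4 fell, among them the cytokines Il13 and Il5 (by 2.38 and 3.99). Of 15 other eicosanoid genes tested 2 rose and 9 fell, and of 4 genes of acetylcholine handling 0 rose and 3 fell; among those that fell were Ptgs2 by 2.39, the 15-lipoxygenase Alox15 by 1.66, the leukotriene receptor Cysltr2 by 1.60 and the acetylcholine-degrading enzyme Ache by 1.79. Of the lists for other epithelial types that mTECs mimic, 9 of 17 ciliated genes rose and 3 fell, 3 of 12 neuroendocrine and neuronal genes rose and 2 fell, 3 of 12 microfold genes rose and 3 fell, and 2 of 16 enterocyte genes rose and 7 fell. The neuroendocrine and neuronal list summed to 423 to 845 CPM in control mTEClo and 299 to 336 CPM in control mTEChi. Of the blood-cell markers, 8 of 12 thymocyte genes tested fell and 1 rose, 6 of 7 B cell genes fell and 1 rose, and genes that fell were 12 of 14 in the myeloid and dendritic list and 8 of 14 tested in the mast cell, basophil and eosinophil list, where Kit rose. The mast cell, basophil and eosinophil list summed to 599 to 982 CPM in control mTEClo and 1582 to 1867 CPM in control mTEChi, and the myeloid and dendritic list to 499 to 953 CPM in control mTEClo and 2206 to 2758 CPM in control mTEChi. Aire fell by 2.09, to 204 to 550 CPM in control mTEClo, against 1345 to 2190 CPM in control mTEChi.

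The makeup of the module differed between populations that hold it. Within a library, the ratio of Dclk1 to Avil was 0.761 to 1.09 in non-entero-hepato mTECs and 0.327 to 0.360 in control mTEClo. The ratio of Plcb2 to Avil was 0.657 to 0.840 in non-entero-hepato mTECs and 0.373 to 0.474 in control mTEClo, while that of Alox5ap to Avil was close, at 0.238 to 0.292 in non-entero-hepato mTECs and 0.238 to 0.289 in control mTEClo. These groups also differ in genotype and sort, so the ratios are given as a description.

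The third comparison asked whether loss of both receptors changed the module in mTEClo. In double-mutant mTEClo 2 of 34 members were called higher, Ptgs1 and Avil, and 0 were called lower. Of 18775 genes tested, 0.16% were called higher and 0.74% in either direction. The members' log2 fold changes were small and mostly of 1 sign: 31 of 34 were positive, with a median of 0.30 against -0.001 over all genes. In 15 members every double-mutant library lay above every control library, against 3.49% of all genes. An unadjusted edgeR p under 0.05 was found for 18 members, against 12.3% of all genes. Members are read in the same libraries and can move together with the share of tuft-like cells. Counts of members are therefore not independent observations, here and in the other comparisons, and 1 shared shift could give many of them.

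Ptgs1 had 638, 680, 687 and 703 CPM in double-mutant mTEClo, against 533, 381, 383 and 452 CPM in control mTEClo, a log2 fold change of 0.63 (SE 0.11, adjusted p = 0.0148). Avil had 3249, 3235, 3665 and 3369 CPM in double-mutant mTEClo, against 3035, 2386, 2504 and 2238 CPM in control mTEClo, a log2 fold change of 0.41 (SE 0.08, adjusted p = 0.0342). The groups did not overlap for either gene, and control replicate 1 stood nearest to the double mutants. Trpm5 had 2368, 2578, 2672 and 2425 CPM in double-mutant mTEClo, against 2272, 1763, 2114 and 1690 CPM in control mTEClo, and was not called (log2 fold change 0.36, SE 0.09, adjusted p = 0.105). Gnat3 had 814, 769, 721 and 805 CPM in double-mutant mTEClo, against 689, 563, 569 and 439 CPM in control mTEClo (log2 fold change 0.46, SE 0.14, adjusted p = 0.166). Pou2f3 had 311, 308, 327 and 291 CPM in double-mutant mTEClo, against 282, 240, 239 and 227.3 CPM in control mTEClo (log2 fold change 0.32, SE 0.09, adjusted p = 0.12). For Trpm5, Gnat3 and Pou2f3 the groups did not overlap.

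The other 10 members without overlap were Hmx2, Gnb3, Rgs13, Sucnr1, Alox5, Alox5ap, Sh2d7, Bmx, Ptpn6 and Dclk1, with log2 fold changes of 0.28 (Ptpn6) to 0.59 (Hmx2). Alox5 and Bmx were closest to the threshold, at adjusted p of 0.0602 and 0.0648. Hpgds and Itpr3, which had risen in the entero-hepato gate, stood at 0.02 and -0.06 in double-mutant mTEClo, and Siglecf and Nrgn at -0.06 and -0.24, none called. Of the further tuft genes 24 of 26 were positive and the adaptor Pstpip2 was called (297 ± 31 CPM in double-mutant mTEClo and 210 ± 11 CPM in control mTEClo, SD, n = 4 each, log2 fold change 0.50, adjusted p = 0.017). Enterocyte genes fell in the same fit, 7 of 16 with 0 rising, and the Avil paralog Vil1 fell by 1.25.

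The count of called members depended on the test and on single libraries. DESeq2 called 10 members higher, limma-voom 4, edgeR without a filter on low counts 11, and a fit over all 28 libraries 0. Over all genes and both directions the share called was 0.74% as first given, 2.43% with DESeq2, 0.655% with limma-voom, 2.13% without a filter and 1.36% over all 28 libraries. Leaving out 1 library at a time, the count was 7 without control replicate 1, 0 without control replicate 3 or double-mutant replicate 2, and 1 without any other library. Over all genes and both directions, 207 of 18638 were called without control replicate 1 and 57 of 18581 without control replicate 3. Without double-mutant replicate 2 it was 47 of 18656, and without any other library 53 to 94 genes. Avil passed the threshold in 1 of these 8 fits and Ptgs1 in 6. The number of positive members stayed at 29 to 32 of 34 over the same 8 fits.

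The mTEClo libraries differed in the level of Aire, the autoimmune regulator of the preceding stage. Aire lay at 178, 143, 228 and 209 CPM in double-mutant mTEClo, 181, 429 and 462 CPM in Hnf4a-removed mTEClo, 163, 715 and 636 CPM in Hnf4g-removed mTEClo and 204, 404, 435 and 550 CPM in control mTEClo. The class II gene H2-Ab1 lay at 2238 to 2587 CPM in double-mutant mTEClo and 3042 to 5420 CPM in control mTEClo. The proliferation genes summed to 179 to 203 CPM in double-mutant and 224 to 405 CPM in control mTEClo. A list of 13 mTEC genes summed to 6919 to 7653 CPM in double-mutant and 8252 to 12078 CPM in control mTEClo. Among controls and among Hnf4g-removed libraries the library with the least Aire had the highest tuft sum, 20578 and 20102 CPM. Among Hnf4a-removed libraries it had the lowest, 18894 CPM, and among double mutants it lay between the others, at 22686 CPM. The part of Aire-stage cells in the tuft result was not tested. Replicate 1 of the Hnf4a-removed, Hnf4g-removed and control groups had Aire in the range of the double mutants. Without these libraries 12 members were called higher, and 2.8% of all genes in either direction. This alternative was chosen after the data were seen, and it left out the control library with the highest tuft sum. The controls kept had 404 to 550 CPM of Aire, against 143 to 228 CPM in double mutants. Aire and genotype therefore cannot be told apart in this fit, and its larger count is no further support.

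**Figure D3:**
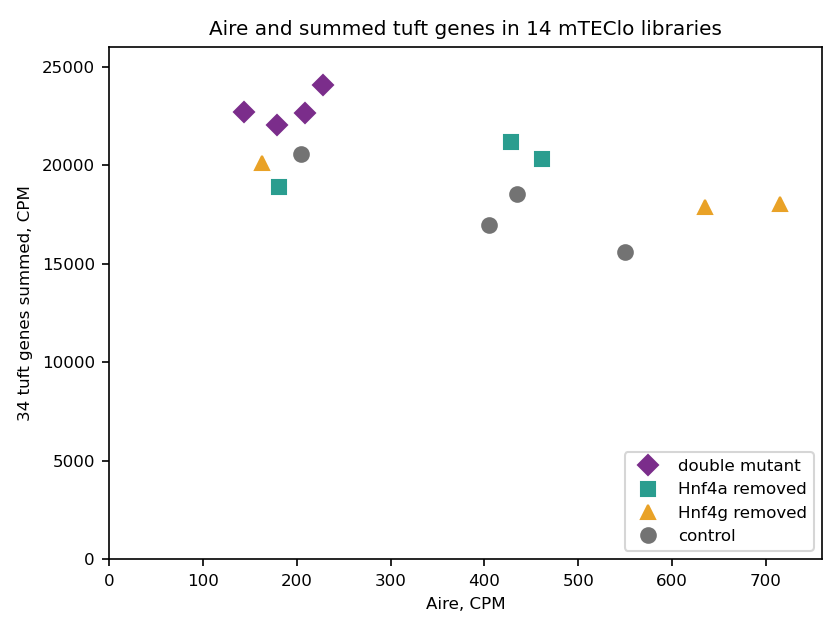
Summed CPM of the 34 tuft genes (vertical axis) against Aire CPM (horizontal axis) in each of the 14 mTEClo libraries, by genotype. The 4 double-mutant libraries lie at 22057 to 24078 CPM on the vertical axis and the 10 others at 15591 to 21166 CPM; the horizontal positions of the genotypes overlap.

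The single removals shared the 4 control libraries with the double mutants. Summed tuft levels were 18894, 21166 and 20297 CPM in Hnf4a-removed mTEClo and 20102, 18014 and 17867 CPM in Hnf4g-removed mTEClo, against 20578, 16975, 18541 and 15591 CPM in control mTEClo. In Hnf4a-removed mTEClo edgeR, DESeq2 and limma-voom called 0 members in either direction, where edgeR called 0.00533% of all genes, and 7 members had an unadjusted p under 0.05, against 6.02% of all genes. In Hnf4g-removed mTEClo the 3 tools also called 0 members, where edgeR called 0.0959% of all genes. At an unadjusted p under 0.05 there were 3 members and 8.19% of all genes, a share of members near that background. The median log2 fold change of the members was 0.16 for Hnf4a removal and 0.10 for Hnf4g removal.

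Avil had 2759, 3207 and 3102 CPM in Hnf4a-removed mTEClo and 2589, 2366 and 2546 CPM in Hnf4g-removed mTEClo, with log2 fold changes over control of 0.24 (SE 0.09) and -0.02 (SE 0.09). Ptgs1 had 446, 613 and 579 CPM in Hnf4a-removed mTEClo and 532, 545 and 483 CPM in Hnf4g-removed mTEClo, with log2 fold changes of 0.31 (SE 0.12) and 0.25 (SE 0.12). Both single removals overlapped the controls for these genes. In Hnf4a-removed mTEClo the log2 fold changes over control were 0.11 for Trpm5, 0.22 for Gnat3 and 0.24 for Pou2f3, and in Hnf4g-removed mTEClo they were 0.08, 0.22 and 0.05 for the same genes, none called.

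Set directly against the single removals, double-mutant mTEClo had 0 called members over Hnf4a-removed mTEClo by edgeR, DESeq2 and limma-voom, where edgeR called 0.293% of all genes, and 7 members had an unadjusted p under 0.05, against 11% of all genes. Over Hnf4g-removed mTEClo edgeR and limma-voom called 0 members, where edgeR called 0.0107% of all genes, while DESeq2 called 5 higher and 1.05% of all genes in either direction. By edgeR 15 members had an unadjusted p under 0.05, against 10.3% of all genes. The median log2 fold changes were 0.15 over Hnf4a-removed and 0.25 over Hnf4g-removed mTEClo.

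**Figure D4:**
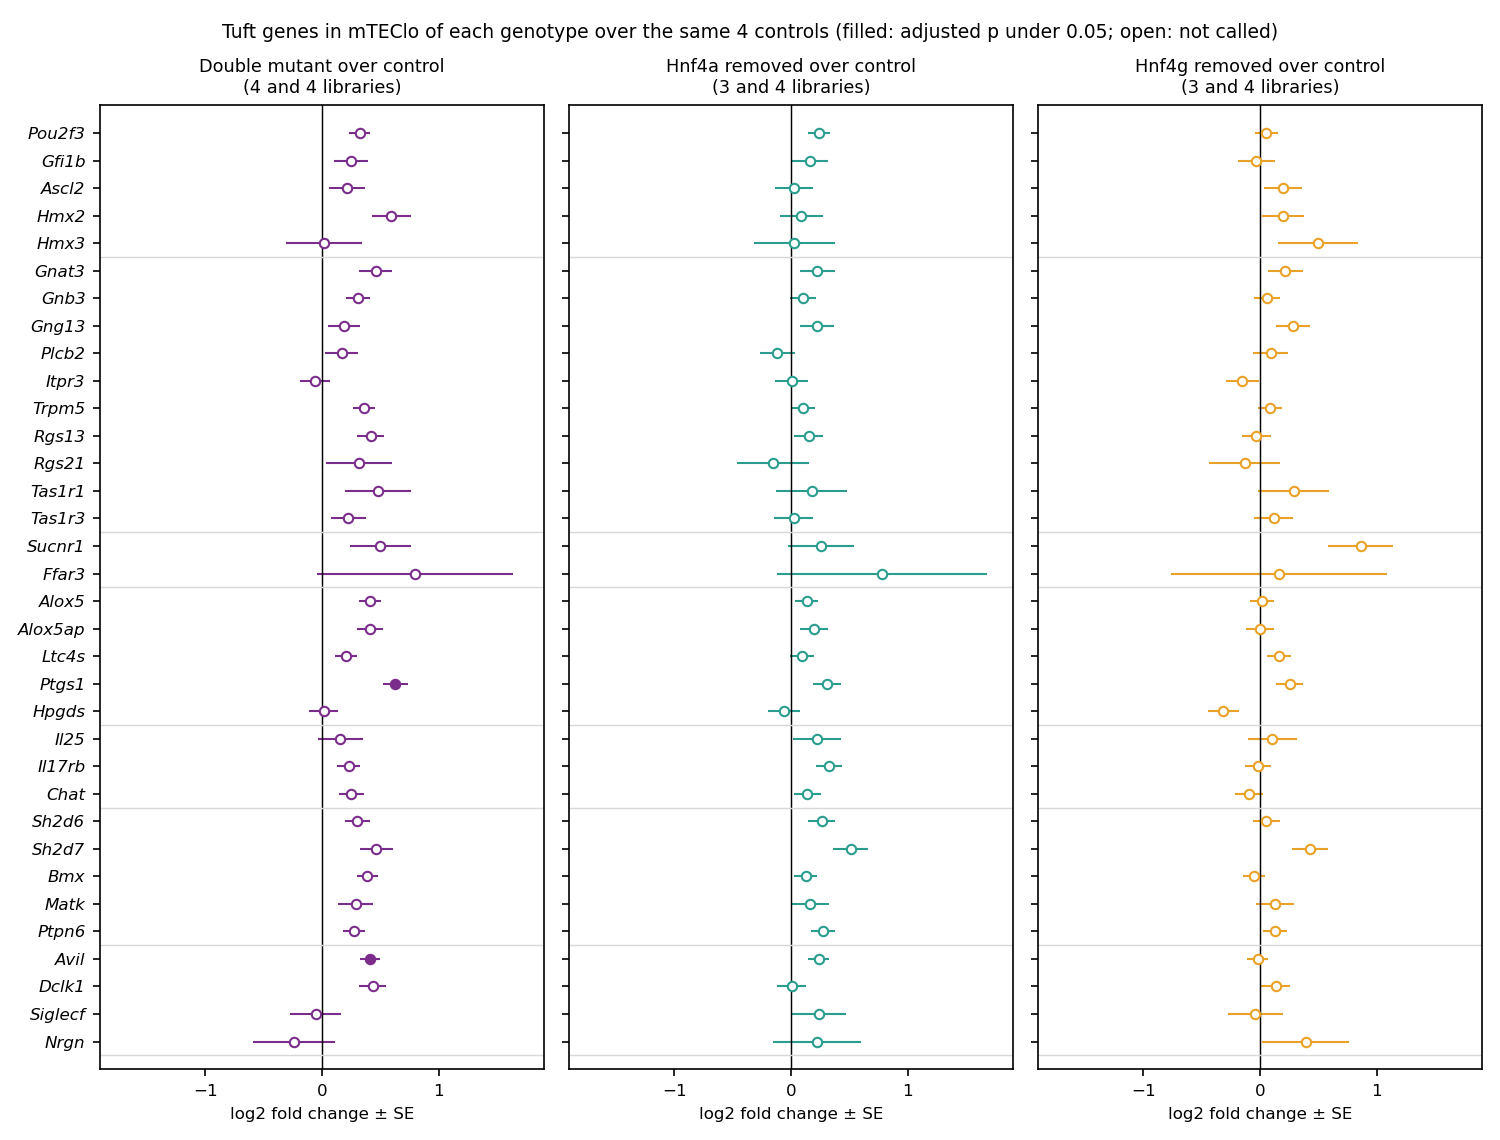
Log2 fold changes ± SE of the 34 tuft genes in mTEClo of double mutants (left), Hnf4a-removed (middle) and Hnf4g-removed thymi (right), each over the same 4 controls. Filled points passed adjusted p under 0.05, which Ptgs1 and Avil did in double mutants; 31, 31 and 23 of 34 members lie above 0 from left to right.

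The same question was asked in mTEChi, where the module was scarce. Gnat3 was called higher in double-mutant mTEChi and 0 members were called lower. Of 18413 genes tested, 0.038% were called higher and 0.635% in either direction. Hmx3 and Nrgn did not pass the filter on low counts, and of the 32 members tested 25 were positive, with a median log2 fold change of 0.23 against 0.01 over all genes. At an unadjusted p under 0.05 there were 8 members, against 11.2% of all genes.

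Gnat3 had 34.5, 33.7, 54.8 and 51.3 CPM in double-mutant mTEChi, against 17.9, 15.7, 19.9 and 23.0 CPM in control mTEChi, a log2 fold change of 1.19 (SE 0.21, adjusted p = 0.0206). Gnb3 had 199, 265, 289 and 241 CPM in double-mutant mTEChi, against 189, 79.6, 131 and 148 CPM in control mTEChi, and was not called (log2 fold change 0.87, SE 0.21, adjusted p = 0.115). Tas1r1 had 5.98, 12.4, 6.37 and 9.46 CPM in double-mutant mTEChi, against 4.03, 1.28, 0.58 and 3.19 CPM in control mTEChi, and was not called (log2 fold change 1.91, SE 0.53, adjusted p = 0.179). These 3 taste genes were the members whose groups did not overlap upward, against 2.75% of all genes, and no member had all double-mutant libraries below the controls. For Gnat3 the gap between the genotypes was wider than for Gnb3, where double-mutant replicate 1 lay close to control replicate 1.

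Other tuft genes of mTEChi overlapped between genotypes. Avil had 136, 157, 223 and 193 CPM in double-mutant mTEChi, against 121, 116, 182 and 182 CPM in control mTEChi (log2 fold change 0.24, adjusted p = 0.688). Trpm5 had 104, 102, 125 and 130 CPM in double-mutant mTEChi, against 89.9, 63.9, 120 and 136 CPM in control mTEChi (log2 fold change 0.18, adjusted p = 0.806). Pou2f3 had 25.8, 55.3, 52.7 and 36.0 CPM in double-mutant mTEChi, against 20.9, 35.3, 49.99 and 42.9 CPM in control mTEChi (log2 fold change 0.19, adjusted p = 0.862). Within a library the ratio of Gnat3 to Avil was 0.214 to 0.266 in double-mutant mTEChi and 0.109 to 0.148 in control mTEChi, a range without overlap that was not tested. Hpgds had the lowest log2 fold change of the members, -0.54 (adjusted p = 0.28).

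The Gnat3 call held in 4 of the 8 fits that left out 1 library, and did not when control replicate 1, 2 or 3, or replicate 4 of the double mutants, was left out (adjusted p of 0.072 to 0.0748, log2 fold change 1.10 to 1.21). DESeq2 called 3 members and limma-voom 1 in this comparison, where DESeq2 called 2.38%, limma-voom 0.63% and edgeR 0.635% of all genes in either direction. None of the 26 further tuft genes was called in mTEChi by edgeR, and 4 of them had an unadjusted p under 0.05. In the same fit 6 of 15 enterocyte genes fell and Vil1 fell by 1.84.

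**Figure D5:**
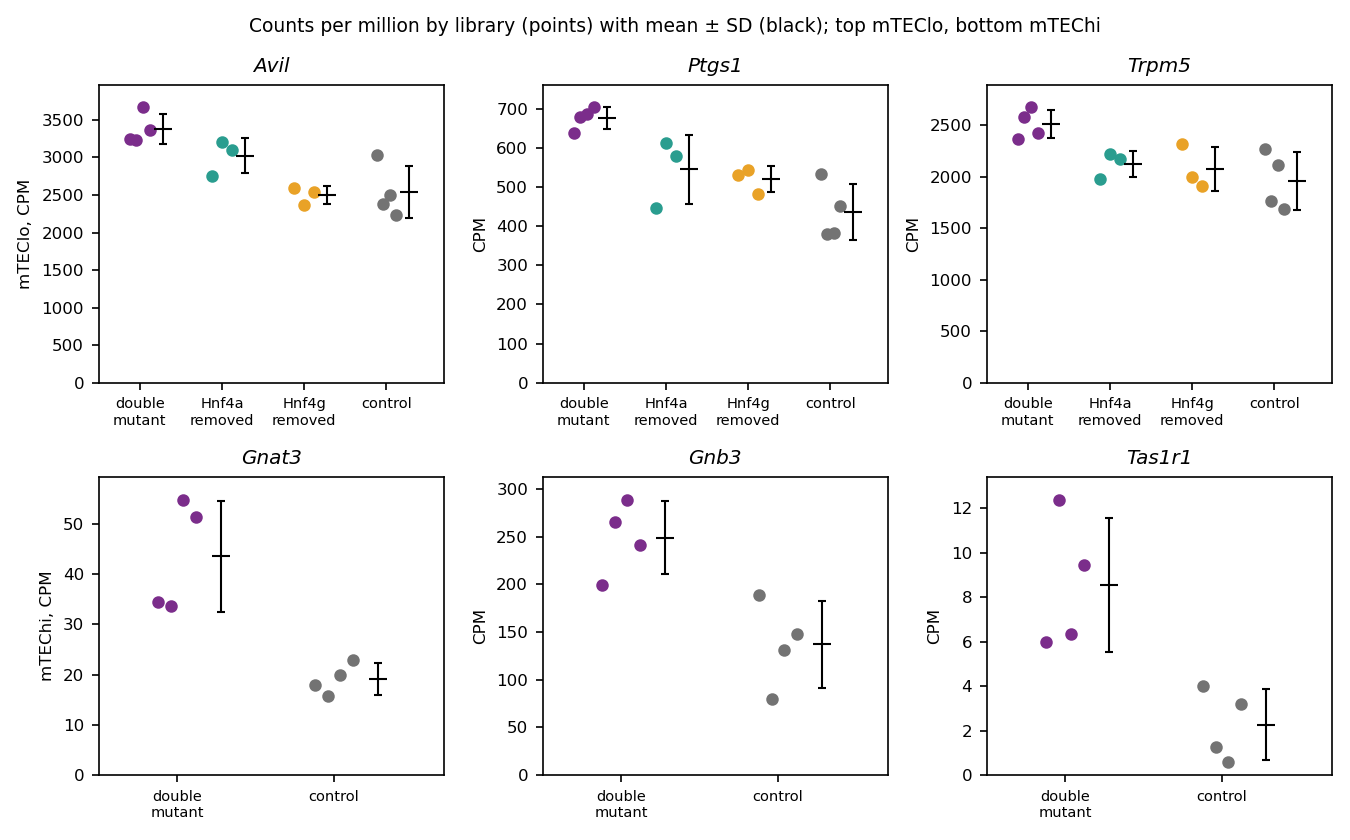
CPM by library (points) with mean ± SD (black) for Avil, Ptgs1 and Trpm5 in mTEClo of 4 genotypes (top) and for Gnat3, Gnb3 and Tas1r1 in mTEChi of 2 genotypes (bottom). All double-mutant points lie above all control points in each panel; Avil and Ptgs1 (top) and Gnat3 (bottom) passed adjusted p under 0.05.

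Whether the double-mutant effect differed between mTEClo and mTEChi was tested with an interaction term over 16 libraries. EdgeR, DESeq2 and limma-voom called 0 members, where edgeR called 0.0597% of all genes in either direction, and 6 members had an unadjusted p under 0.05, against 11.4% of all genes. For Gnat3 the double-mutant effect in mTEClo minus that in mTEChi was -0.72 on the log2 scale (SE 0.23, adjusted p = 0.219), and for Ptgs1 it was 0.54 (SE 0.19, adjusted p = 0.252). The effects on these members are therefore not shown to differ between the stages. Outside the module the further tuft gene Pstpip2 was called, with a difference of 0.76 (SE 0.13, adjusted p = 0.0448).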

How the data were processed

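The 34 genes and the lists beside them were chosen with earlier results of these data known. The authors deposited raw read counts per gene, whole numbers without normalization, for 28 libraries; per the submitters' processing notes they used STAR 2.7.3a, featureCounts and the build mm10. For the gene annotation and strand setting, nothing is stated in the sources used here. Per the labels' protocols, libraries were amplified for 18 PCR cycles and read as pairs of 38 bases with a kit that does not mark strand and without molecular identifiers, so PCR copies are counted as reads.

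From these counts, edgeR 4.0.16 (R 4.3.3) fitted the quasi-likelihood test with TMM scaling after a filter on low counts (filterByExpr, minimum count 10, minimum total 15), in 4 fits: the wild-type gates, mTEClo, mTEChi, and mTEClo with mTEChi. P-values were Benjamini-Hochberg adjusted over all genes tested, and 0.05 was the threshold. Thymi carry numbers in the labels, but nothing there says whether each library of a group had its own animal; the p-values then reflect spread between libraries that may be technical. No pair of replicates agreed within sampling noise (chi-square per degree of freedom 5.93 to 24.2 over 36 pairs). Fits were tested on simulated data. Alternatives used DESeq2 1.42.0, limma-voom 3.58.1, RLE factors, no filter, other sets of libraries and a replicate block.

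In each comparison Avil, Trpm5, Gnat3, Pou2f3 and up to 6 called members of smallest p per direction are given per library. From other lists mostly up to 3 called genes of smallest p are given. Some genes were named outside this rule, such as Vil1 in double-mutant mTEClo and the blood-cell markers Cpa3, Fcer1a, Ms4a2, Epx and Mcpt8. Other members are given by values, ranges and counts. Gene lengths and overlaps are from GENCODE M21 (GRCm38), and promoter windows from RefSeq, read in the gene's direction in 32 of 34 windows checked against transcripts.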

Additional observations from a re-analysis of the deposited data

Results flagged for a closer look

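In 6 of 140 sets of 4 libraries (34 members and their sum, in 4 groups) 1 library stood apart from the other 3 by Dixon's test at its 95% critical value, and chance alone gives about 1 in 20. Rgs13 had 1115 CPM in double-mutant mTEClo replicate 4, against 996 to 998 CPM in the other 3. Sucnr1 had 36.3 CPM in double-mutant mTEClo replicate 3, against 22.9 to 23.7 CPM in the others. In double-mutant mTEClo replicate 1, Hpgds had 158 CPM, against 173 to 175 CPM in the others, and Chat had 341 CPM, against 411 to 423 CPM. Bmx had 133.9 CPM in double-mutant mTEChi replicate 3, against 55.4 to 67.4 CPM in the others. Ltc4s had 114.4 CPM in control mTEClo replicate 3, against 89.6 to 93.8 CPM in the others.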

How the results depend on the processing

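Members called between the wild-type gates stayed at 25 to 31 of 34 under all alternatives run, against 27, and between mTEClo and mTEChi at values within 1.5 times of 32 and 33. For double-mutant mTEClo against control mTEClo the count of 2 became 10 with DESeq2, 4 with limma-voom, 11 without a filter, 5 in a fit of these groups only, 0 in a fit over 28 libraries, 12 without replicate 1 of the control, Hnf4a-removed and Hnf4g-removed groups (chosen after seeing the data) and 0 to 7 leaving out 1 library. For double-mutant mTEChi the count of 1 became 3 with DESeq2, 4 without a filter, 2 over 28 libraries and 0 to 1 leaving out 1 library. Without a filter, counts of 0 became 1 (Hnf4a-removed), 2 (Hnf4g-removed), 2 (double-mutant over Hnf4a-removed) and 6 (over Hnf4g-removed). Of 45471 genes the same fits called 212, 482, 733 and 516. Over Hnf4g-removed the count became 5 with DESeq2 and 4 without those replicates, where 197 of 18775 and 255 of 19369 genes were called. The causes were not tested. Of the log2 fold changes of named members under alternatives, 809 kept their side of the threshold, 12 newly passed it and 15 no longer did. None changed sign where either fit passed the threshold. Uncalled values near 0 did change sign, such as Avil in Hnf4g-removed mTEClo (-0.077 to 0.078 leaving out 1 library). The thymus numbers were not used to pair the libraries. Same-numbered deviations correlated at -0.0213 to 0.195, and between the gates 2 of 3 libraries matched their own number best. Such values cannot decide whether thymi were shared. A replicate block gave counts of 28 between the gates, 2 in double-mutant mTEClo and 1 in double-mutant mTEChi. It moved the median log2 fold change of the members between the gates from -2.23 to -2.65. Members near 0 reads (Ffar3, Hmx3, Nrgn) are limited by depth.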
